A study of Mus musculus with 16 samples.

Results

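The immediate early genes described here are 10 activity-induced and injury-induced mouse genes, Fos, Fosb, Fosl2, Jun, Junb, Egr1, Egr3, Arc, Npas4 and Nr4a1, in the m6A maps of the peri-infarct cerebral cortex. They were chosen by name, with earlier results of these data known, and a peak was counted for them where it overlapped their exons on the same strand. All 10 had a peak in at least 1 list, among 13851 genes that did. Together they held 98 of 169564 listed peaks, which joined into 47 of 52776 regions when peaks sharing at least 1 exonic base were merged.

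The study used adult male C57BL/6J mice of 6 to 8 weeks, with 6 mice per surgery group. Mice of the MCAO/R groups had the middle cerebral artery occluded with a filament for 2 h (MCAO), and cortical peri-infarct tissue was taken after reperfusion for 0, 6 or 24 h (groups Re-0 h, Re-6 h, Re-24 h), while Sham mice went through surgery without occlusion. Each group has 2 m6A immunoprecipitation (IP) libraries with 1 peak list each, called list 1 and list 2 after the replicate number. The sources used here do not say whether mice were pooled for a library, so the spread between the 2 lists of a group may be technical.

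Immediate early genes are transcribed within minutes of synaptic activity, growth factor signalling or injury, without a need for new protein synthesis, and most of them encode transcription factors that switch on later genes. Their mRNAs are short-lived. N6-methyladenosine (m6A) is a methyl mark on internal adenosines of mRNA that is read by binding proteins acting on mRNA decay and translation, and it is densest around stop codons and in 3' untranslated regions (3' UTRs).

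MeRIP-seq fragments RNA, pulls down m6A-bearing fragments with an antibody and calls a peak where IP reads exceed the reads of the input RNA. The lists give each peak's span, strand and score without read counts, which leaves the sequencing depth unknown. The scale of the score is not defined in the sources used here, and each peak is therefore given by its score percentile among the peaks of its own list, from 0 for the lowest to 100 for the highest. The lists held 18775 to 24078 peaks. With no input data used here, more RNA and more methylation per RNA cannot be told apart, nor can fewer cells of a type and less RNA per cell. Of the marker genes of cortical cell types, 3 to 6 of 10 neuronal, 1 to 2 of 4 astrocyte, 0 to 2 of 4 oligodendrocyte, 2 to 3 of 4 microglial and 1 to 3 of 3 endothelial markers had a peak in a list.

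The immediate early genes fell into 3 kinds by where their peaks were listed. Jun, Fosb and Fosl2 had a peak in all 8 lists, as did 31.0% of all genes with a peak. Junb and Fos were listed at Re-24 h alone, Junb in both lists and Fos in list 2. Egr1, Arc, Egr3, Npas4 and Nr4a1 were listed in some groups and absent from others. Egr1 had 10 of its 11 peaks at Re-24 h, and Arc had 5 of its 6 there. Egr3 was listed in both Re-0 h lists but in neither Re-6 h list. Npas4 and Nr4a1 were listed in both Sham lists and in neither Re-0 h list.

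**Figure D1:**
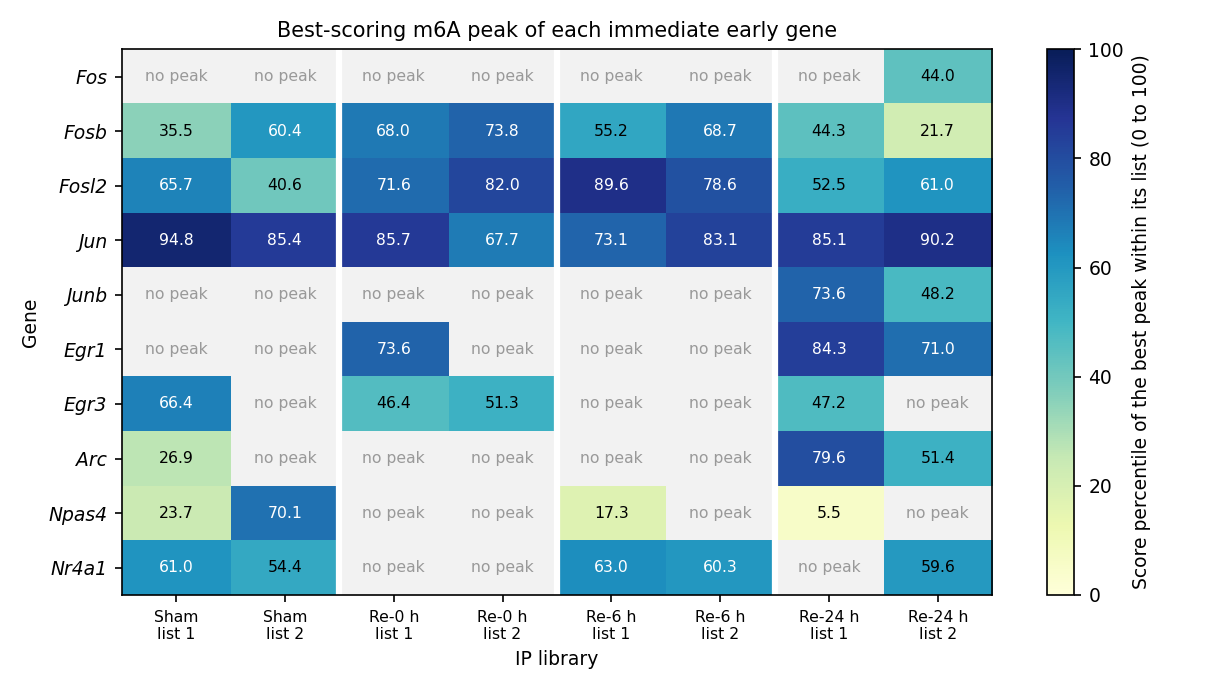
Score percentile within its list (colour and printed value, 0 to 100) of the best-scoring m6A peak of each immediate early gene (rows) in each of the 8 IP libraries (columns, 2 lists per group). Jun, Fosb and Fosl2 have a value in all 8 columns, Junb only in the 2 Re-24 h columns, and Arc in neither Re-0 h nor Re-6 h.

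The number of member peaks in a list was 13 and 15 in Sham, 12 and 7 at Re-0 h, 7 and 7 at Re-6 h, and 17 and 20 at Re-24 h. As a rate per 10000 peaks of the list this was 6.92 and 7.44 in Sham, 6.05 and 2.91 at Re-0 h, 3.15 and 3.02 at Re-6 h, and 8.91 and 8.99 at Re-24 h. The Re-6 h lists were thus below both Sham lists and the Re-24 h lists above them, and the Re-0 h lists spanned a range that included the Re-6 h values. An exact permutation test of 2 lists against 2 cannot give p below 0.333, and none was made. The number of the 10 genes with a peak was 7 and 5 in Sham, 5 and 4 at Re-0 h, 5 and 4 at Re-6 h, and 8 and 8 at Re-24 h.

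Regions were called gained at a reperfusion time when both of its lists and neither Sham list held them, and lost when both Sham lists and neither list of the time did. The 3 times share the same Sham lists, so a Sham list moves all 3 comparisons. At Re-24 h, 5 of the 37 member regions found in the 4 lists were gained, or 13.5%, where 3.79% of all regions were. Because the genes were chosen with earlier results of these data known, this difference is a description and was not tested. The 5 gained regions lay in 3 genes, with 1 in Junb and 2 each in Egr1 and Arc. No member region was gained at Re-0 h, of 27 regions, or at Re-6 h, of 22 regions, where 3.84% and 4.94% of all regions were gained. Lost regions numbered 1 of 27 at Re-0 h, 2 of 22 at Re-6 h and 1 of 37 at Re-24 h, against 1.87%, 2.03% and 2.76% of all regions. One coding region of Npas4 made up the loss at Re-0 h and Re-24 h, and at Re-6 h the stop-codon region of Fosb was lost beside it.

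**Figure D2:**
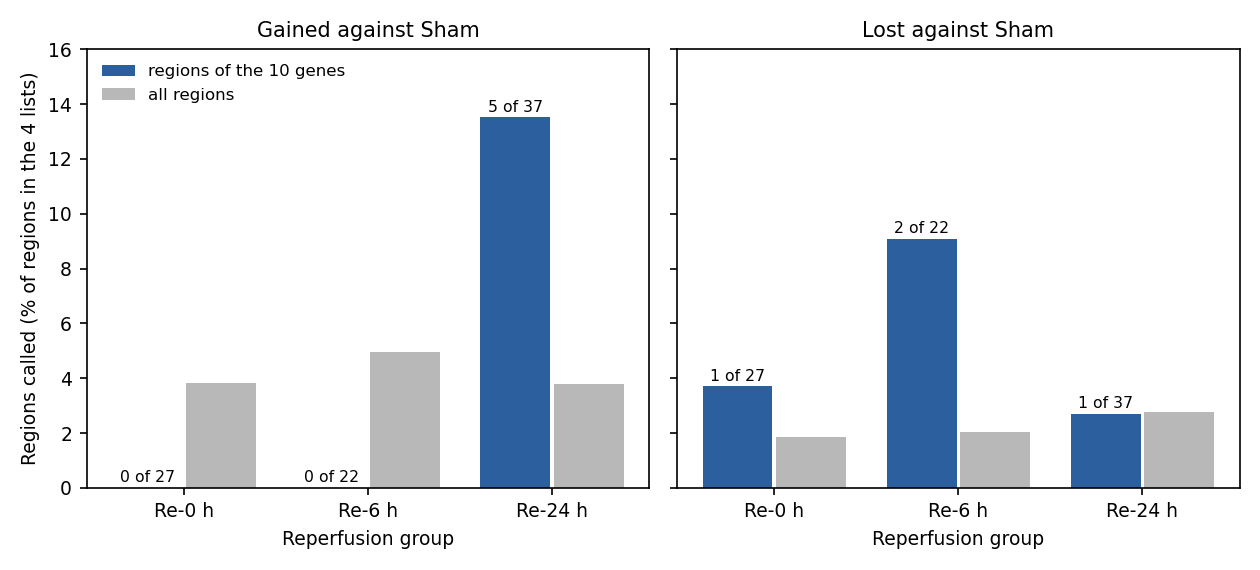
Share of regions gained (left) or lost (right) against Sham, in percent of the regions present in at least 1 of the 4 lists compared, for the 10 immediate early genes (blue, with counts) and for all regions (grey), at the 3 reperfusion times. The blue bar at Re-24 h stands at 13.5% for gained regions beside 3.79% for all regions.

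Counted by gene, with any peak of the gene as presence, Junb and Egr1 were gained at Re-24 h, 2 of 10 genes with a peak in those 4 lists, where 4.77% of all genes were. Npas4 and Nr4a1 were lost at Re-0 h, 2 of 8 genes, where 1.62% of all genes were. No member gene was gained at Re-0 h or Re-6 h, against 4.46% and 5.74% of all genes. None was lost at Re-6 h or Re-24 h, against 1.72% and 2.47%. Arc did not count as gained by gene because Sham list 1 held a peak at the far end of its 3' UTR.

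Few member regions recurred from list to list. Of the 47 regions, 30 were in a single list, or 63.8%, against 52.6% of all regions, and 6 were in at least 4 lists, or 12.8%, against 25.8% of all regions. These 6 belonged to Jun, Fosb and Fosl2. Of the member regions in either list of a group, both lists held 5 of 19 in Sham, 4 of 14 at Re-0 h, 4 of 10 at Re-6 h and 9 of 26 at Re-24 h. The share for all regions was 36.1%, 37.9%, 39.05% and 36.7% in the same order.

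On the spliced transcripts, 49.0% of the member peaks had their middle in the 3' UTR, 38.8% in the coding sequence and 12.2% in the 5' UTR, compared with 34.9%, 60.2% and 4.88% of the peaks of all genes. Within 200 nt of the stop codon lay 26 of the 98 member peaks, or 26.5%, against 20.4% for all genes. The shares for all genes are of the 146732 peaks that could be placed on a transcript. None of these shares was adjusted for the lengths of the 5' UTR, coding sequence and 3' UTR of the genes, so the contrast may reflect those lengths. A region found in several lists is counted again in each, and Jun, Fosl2 and Fosb held 25, 18 and 17 of the 98 member peaks. The members differed among themselves in position. The 5' UTR peaks were mostly those of Fosb (5), Jun (4) and Fosl2 (2), all 6 peaks of Nr4a1 and 5 of 6 of Npas4 were coding, and all 5 of Egr3 lay in the 3' UTR. The stop codon was covered by 1 region each of Jun, Junb, Fosb, Fosl2 and Arc. Distances below are spliced nucleotides from the first base of the stop codon, negative towards the 5' end, on the transcript with the longest coding sequence.

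**Figure D3:**
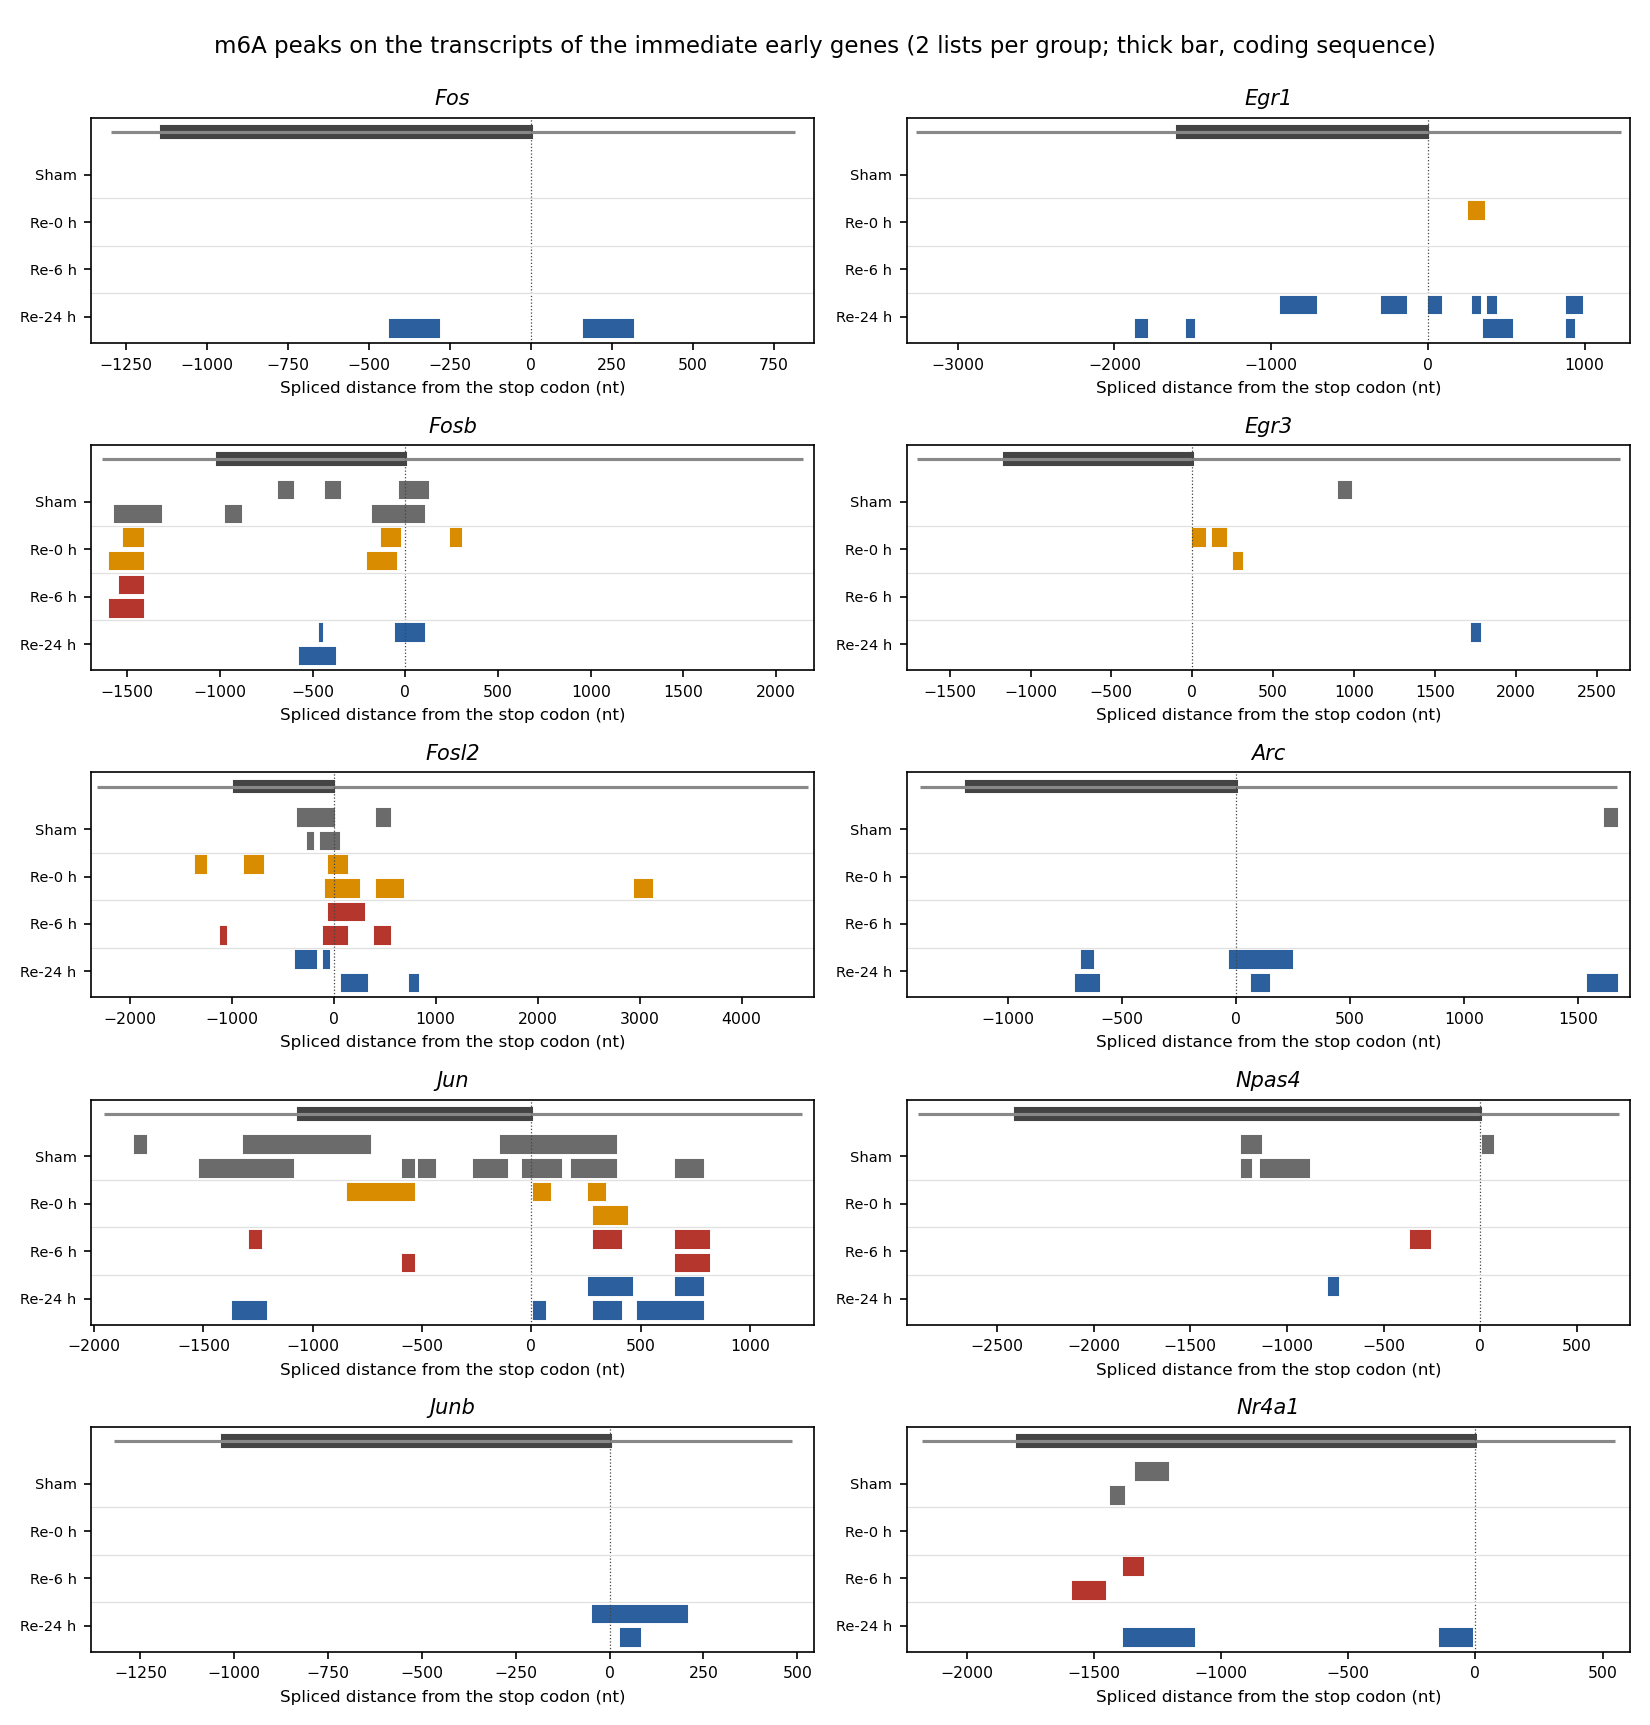
Exonic parts of all 98 peaks of the immediate early genes, 1 panel per gene, by spliced distance from the stop codon in nucleotides (horizontal axis). Each group has 2 lanes, list 1 above list 2, coloured by group, under a transcript drawn with its coding sequence as a thick bar. Peaks of Jun run from the 5' UTR to the 3' UTR in most groups, and those of Junb, Egr1 and Arc lie almost entirely in the Re-24 h lanes.

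RRACH, the 5-base consensus in which m6A is found, reads A or G, A or G, A, C, and then A, C or T, and was sought on the sense strand. It occurred 16.3 times per kb in the member regions and 17.0 times per kb in all regions. At least 1 site was present in 37 of the 47 member regions, or 78.7%, and in 77.2% of all regions. GGACT, which is 1 of its variants, was in 12 member regions, or 25.5%, against 20.2% of all regions. Over the whole transcripts of the 10 genes RRACH occurred 13.3 times per kb. None of the 5 regions of Egr3 held a RRACH site. The sequences below are from GRCm39, on the gene's strand and 5′ to 3′, and capitals mark RRACH sites: in a window of 25 bases the site named beside it alone, and in longer stretches every site that lies wholly inside.

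Jun encodes c-Jun, the principal partner of Fos proteins in the AP-1 transcription factor, and is a gene of 1 exon (ENSMUSG00000052684.6, chr4:94937271-94940459, minus strand). It had 25 peaks in 5 regions, the most of any member, and its stop-codon region reached the highest percentile of any member. Its best peak stood at 94.8 and 85.4 in Sham, 85.7 and 67.7 at Re-0 h, 73.1 and 83.1 at Re-6 h, and 85.1 and 90.2 at Re-24 h. Both Re-6 h lists were below both Sham lists, while Re-0 h and Re-24 h overlapped Sham. The Jun peaks of Sham covered more of the transcript than those of any other list, with 1150 and 1200 nt, against 450 and 150 nt at Re-0 h, 325 and 200 nt at Re-6 h, and 325 and 625 nt at Re-24 h.

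The stop-codon region of Jun (chr4:94938046-94938770, -264 to 460 nt) was in 7 lists and absent from Re-6 h list 2. Only peaks of the Sham lists covered the stop codon itself, and the peaks of the other lists lay downstream of it. The best peak of the region stood at 94.8 and 84.7 in Sham, 85.7 and 67.7 at Re-0 h, 67.0 in Re-6 h list 1, and 85.1 and 89.2 at Re-24 h. Within the region, 50 nt of 3' UTR (286 to 335 nt) were covered in all 7 of these lists, and a GGACT just upstream was covered in 4 of them. Where the best peak lay elsewhere, the peak over these 50 nt stood lower. It was at 72.7 in Sham list 2, 75.3 in Re-0 h list 1 and 61.2 in Re-24 h list 2. The windows show the 2 RRACH sites of the shared 50 nt and that GGACT.
Jun, GAACT at 298 nt (chr4:94938194-94938218): cattgaccaaGAACTgcatggacct
Jun, GGACC at 307 nt (chr4:94938185-94938209): agaactgcatGGACCtaacattcga
Jun, GGACT at 274 nt (chr4:94938218-94938242): ccagaacgatGGACTtttcgttaac

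Among all peaks with an exonic part of 50 nt, 55.4% held a RRACH site. The GGACT site was covered in both Sham lists, Re-0 h list 1 and Re-24 h list 1, and in neither Re-6 h list. A second GGACT of the same region, at 128 nt, was covered in the 2 Sham lists only.

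Jun had 2 further recurrent regions. The region from the 5' UTR into the coding sequence (chr4:94939046-94940020, -1514 to -540 nt) was in 6 lists, at 83.6 and 85.4 in Sham, 76.5 in Re-0 h list 1, 60.4 and 51.7 at Re-6 h, and 75.3 in Re-24 h list 2. Both Sham values were above all others, with only 1 list each at Re-0 h and Re-24 h. The share of all regions with such an order was not counted. With regions in at least 6 lists fitted, Re-6 h minus Sham was -28.5 percentile points and was not called by limma. The peaks of this region differed in length, with 575 and 475 nt in Sham and 50 nt in each Re-6 h list, and the 2 peaks of Re-6 h shared no base. The downstream 3' UTR region (chr4:94937696-94938020, 486 to 810 nt) showed another order, since it was absent from Sham list 1 and both Re-0 h lists. It stood at 49.8 in Sham list 2, 73.1 and 83.1 at Re-6 h, and 65.6 and 90.2 at Re-24 h, with 125 nt shared by all 5 peaks. The stretch around its only RRACH site in the shared part reads as follows.
Jun, AAACT at 720 nt (chr4:94937772-94937796): aaaatacaatAAACTattgaaaagt

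Junb encodes a Jun relative that also forms AP-1 dimers and restrains c-Jun at some promoters. It had a single region, over the stop codon (chr8:85703822-85704071, -45 to 204 nt; gene ENSMUSG00000052837.9, minus strand). The region was at 73.6 in Re-24 h list 1 and 48.2 in list 2, and no other list held a peak of Junb. The list 1 peak had 250 nt and the list 2 peak 50 nt inside it, so the call at this time rests on a short stretch (30 to 79 nt) that holds no RRACH site. The GGACT of the longer peak lies at 124 nt.
Junb, GGACT at 124 nt (chr8:85703888-85703912): ctcacacactGGACTccggcccgcc

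Fosl2 encodes Fra-2, a Fos family protein without the transactivation domain of Fos, and held the most widely recurring region of the 10 genes. Its stop-codon region (chr5:32310157-32310856, -374 to 325 nt; gene ENSMUSG00000029135.12, plus strand) was the only member region in all 8 lists, as 8.97% of all regions were. The percentile was 65.7 and 40.6 in Sham, 56.1 and 82.0 at Re-0 h, 89.6 and 78.6 at Re-6 h, and 52.5 and 61.0 at Re-24 h. Both Re-6 h lists were above both Sham lists and both Re-24 h lists, and the Re-0 h lists overlapped Sham. The share of all regions separated in this way was not counted, and 2 lists against 2 allow no exact p below 0.333.

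The mean of the region at Re-6 h was 84.1 ± 7.83 (SD, n = 2) and in Sham 53.1 ± 17.7 (SD, n = 2). This difference of 31.0 percentile points (SE 12.2) did not pass in limma (unadjusted p = 0.0510, adjusted p = 0.557, Benjamini-Hochberg over the 4735 regions in all 8 lists). It was 18.4 points without Sham list 2 and 43.5 points without Sham list 1. The differences from Sham were 15.9 points at Re-0 h and 3.65 points at Re-24 h, with limma adjusted p of 0.911 and 0.976. The difference at Re-0 h was 2.98 points without Re-0 h list 2, 3.38 without Sham list 2, 28.5 without Sham list 1 and 28.9 without Re-0 h list 1. The F test of limma over the 4 groups gave an adjusted p of 0.761, and Re-6 h minus Re-24 h was 27.3 points (limma adjusted p = 0.754). The same fit called 0.0211% of regions at Re-0 h, 0.0422% at Re-6 h and 0% at Re-24 h, and 0.0211% by the F test. An unadjusted limma p under 0.05 against Sham was found for 429 of the 4735 regions at Re-6 h. At Re-24 h, 0 regions were called and 400 had such a p.

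The peaks that made up the Fosl2 region differed in position. In Sham list 1 the peak ran from -349 to 0 nt and in Re-6 h list 1 from -49 to 300 nt. At Re-24 h, list 1 held peaks at -374 to -175 and -99 to -50 nt and list 2 one at 76 to 325 nt, so the 2 lists shared no base of it. The 50 nt covered in the most lists, all 6 of Sham, Re-0 h and Re-6 h, end at the first base of the stop codon and hold 3 RRACH sites.
Fosl2, -49 to 0 nt (chr5:32310482-32310531): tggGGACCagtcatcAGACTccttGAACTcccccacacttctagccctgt

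The last of these sites, GAACT at -25 nt, has a counterpart at the same distance in Fosb. The final 30 coding bases with the stop codon are shown for the 3 Fos family members, to compare the site. Fosb and Fosl2 were identical at 24 of the 30 bases, Fos and Fosb at 22, and Fos and Fosl2 at 23.
Fosb, end of the coding sequence (chr7:19038766-19038795): ctGAACTcgccctcccttcttgctctgtaa
Fosl2, end of the coding sequence (chr5:32310504-32310533): ttGAACTcccccacacttctagccctgtaa
Fos, end of the coding sequence (chr12:85523203-85523232): ctgagctcacccacgctgctggccctgtga

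The site was covered by a peak in 6 lists in Fosl2 and in 3 lists in Fosb, which were both Sham lists and Re-24 h list 1. Fos has no RRACH in these 30 bases and no peak there in any list. Fosl2 also had a 3' UTR region (chr5:32310932-32311206) in 3 lists, at 26.8 in Sham list 1, 58.6 in Re-0 h list 2 and 53.9 in Re-6 h list 2. Its other 5 regions were each in 1 list, at percentiles from 1.66 to 71.6.

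Fosb encodes FosB and, by splicing inside its last coding exon, the truncated and long-lived ΔFosB. The gene (ENSMUSG00000003545.4, chr7:19036621-19043976, minus strand) had 17 peaks in 7 regions, and its 2 recurrent regions lie in the 5' UTR and around the stop codon. The 5' UTR region (chr7:19043659-19043933, -1591 to -1317 nt) was in 5 lists, at 50.6 in Sham list 2, 68.0 and 73.8 at Re-0 h, and 55.2 and 68.7 at Re-6 h. It was in neither Re-24 h list, and all 4 values of the earlier times were above that of Sham list 2. The 100 nt shared by the 5 peaks hold 2 RRACH sites, where 82.7% of all peaks of that length hold at least 1.
Fosb, AAACT at -1493 nt (chr7:19043821-19043845): atatatttttAAACTggagagaaag
Fosb, AGACT at -1456 nt (chr7:19043784-19043808): cctttttgcaAGACTctttctagat

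The stop-codon region of Fosb (chr7:19038646-19038970, -202 to 122 nt) was also in 5 lists, with a different set of groups. It stood at 27.4 and 60.4 in Sham, 60.6 and 72.4 at Re-0 h, and 44.3 in Re-24 h list 1, and neither Re-6 h list held it. At Re-6 h the only peaks of Fosb were thus those of the 5' UTR. The Re-0 h peaks of the stop-codon region ended before the stop codon, at -28 nt in list 1 and -53 nt in list 2. Neither shared a base with the Sham list 1 peak (-27 to 122 nt). In GENCODE, transcript Fosb-206 splices out 140 nt (chr7:19038932-19039071) that the full-length Fosb-201 keeps. Of the peaks, 2 reached into it, by 14 nt in Sham list 2 and by 39 nt in Re-0 h list 2. At Re-24 h both lists held a peak whose span ran across an intron, with only 7 and 82 exonic nt at percentiles of 1.65 and 7.64.

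Fos, the founding member of the family and a common marker of neuronal activation, had 2 peaks, both in Re-24 h list 2. One lay in the coding sequence (chr12:85522796-85522945, -434 to -285 nt) at a percentile of 34.8 and the other in the 3' UTR (chr12:85523396-85523545, 166 to 315 nt) at 44.0. Since Re-24 h list 1 held neither, Fos was not called gained. The coding peak held 2 RRACH sites and no GGACT.
Fos, -434 to -285 nt (chr12:85522796-85522945): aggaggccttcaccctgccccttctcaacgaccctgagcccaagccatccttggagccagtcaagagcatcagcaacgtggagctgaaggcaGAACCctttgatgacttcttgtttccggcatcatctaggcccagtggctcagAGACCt

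**Figure D4:**
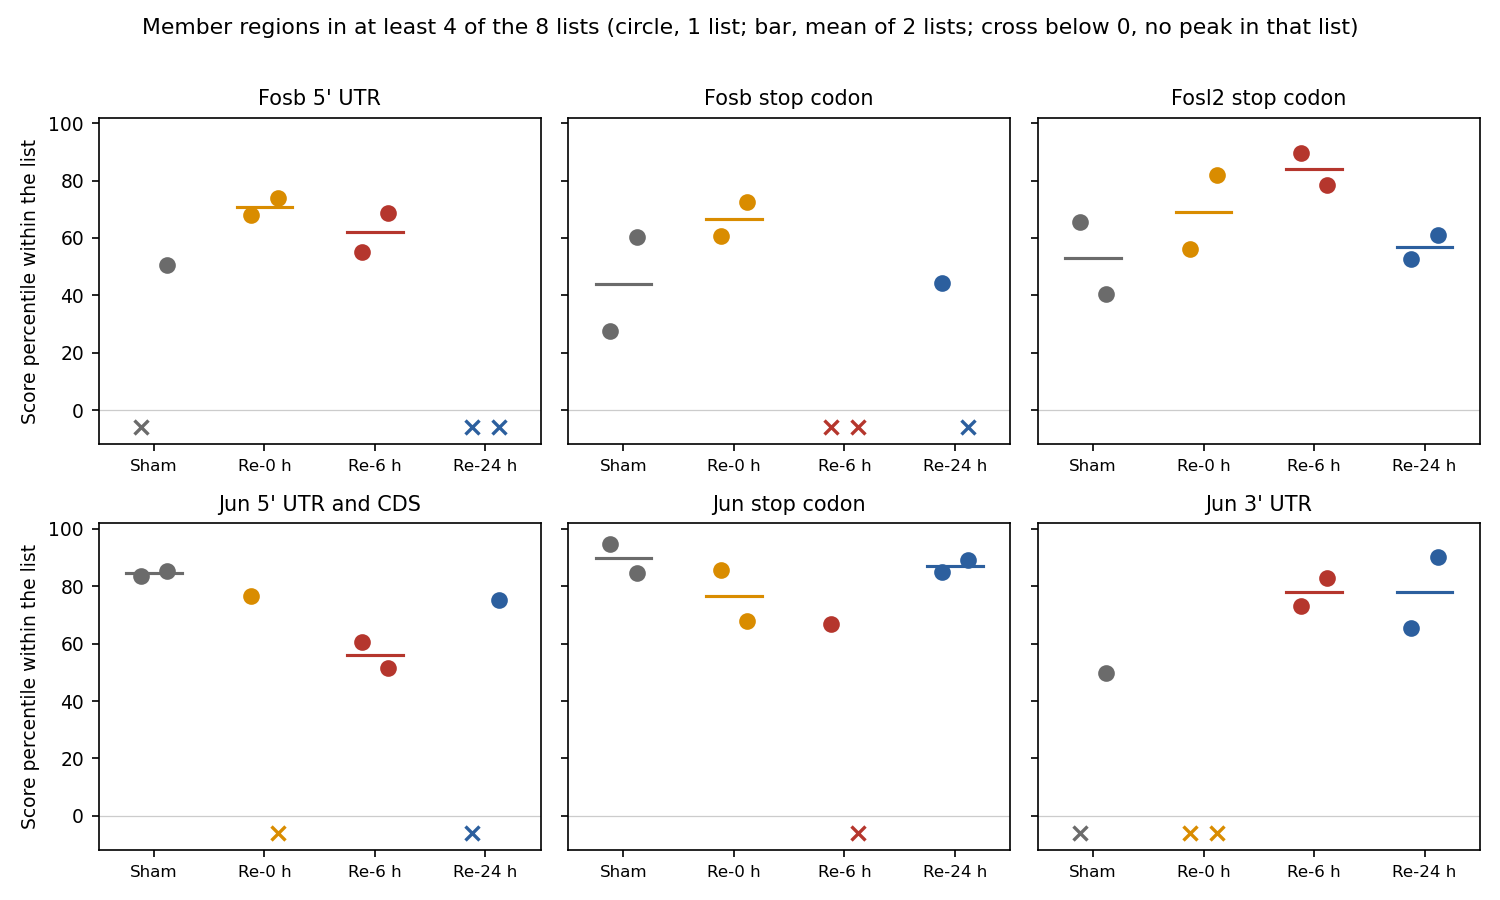
Score percentile within its list (vertical axis, 0 to 100) of the 6 member regions present in at least 4 of the 8 lists, by group; each circle is 1 list, a bar is the mean of the 2 lists where both have the region, and a cross below 0 marks a list without it. The Fosl2 stop-codon region stands at 89.6 and 78.6 at Re-6 h, and the Fosb stop-codon region has crosses for both Re-6 h lists.

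Egr1 and Egr3 encode zinc-finger transcription factors that link synaptic activity to plasticity genes. Egr1 (ENSMUSG00000038418.10, chr18:34992876-34998049, plus strand) had 11 peaks in 8 regions, 6 in Re-24 h list 1, 4 in list 2 and 1 in Re-0 h list 1. Its best percentile was 84.3 and 71.0 at Re-24 h and 73.6 in Re-0 h list 1. Both regions gained at Re-24 h were in the 3' UTR. One (885 to 984 nt) stood at 72.1 and 71.0 in the 2 lists, and the other (360 to 534 nt) at 0.270 and 44.4, so that the first was similar in both lists and the second was near the bottom of list 1. The 2 coding peaks of list 1, at 84.3 and 77.5, had no counterpart in list 2. The 3' UTR peak of Re-0 h (260 to 359 nt) overlapped one of Re-24 h list 1 that stood at 15.6.

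Egr3 (ENSMUSG00000033730.6) had 5 short peaks of 50 to 75 nt, each its own region. They were at 66.4 in Sham list 1, 32.1 and 46.4 in Re-0 h list 1, 51.3 in Re-0 h list 2 and 47.2 in Re-24 h list 1. The 3 peaks of Re-0 h lay side by side (6 to 80, 131 to 205 and 256 to 305 nt) and shared no base between the lists. Joining peaks with up to 50 bases between them made 1 region of them, which was then gained at Re-0 h; this joining was chosen after seeing the data.

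Arc is an effector rather than a transcription factor, a synaptic protein that drives the removal of AMPA receptors. It had 6 peaks in 3 regions (ENSMUSG00000022602.16, chr15:74540932-74544419, minus strand), and no peak at Re-0 h or Re-6 h. The stop-codon region (chr15:74542788-74543062, -29 to 245 nt) stood at 79.6 in Re-24 h list 1 and 36.8 in list 2. The coding region (chr15:74543638-74543737, -704 to -605 nt) stood at 38.4 and 44.8, with both peaks centred at -654 nt. Both regions were gained at Re-24 h. The stretches shared by both lists are shown, the first whole and the second around its only RRACH site, with a GGACT that the longer peak of list 1 covered.
Arc, -679 to -630 nt (chr15:74543663-74543712): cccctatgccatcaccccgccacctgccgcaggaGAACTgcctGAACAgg
Arc, AGACA at 109 nt (chr15:74542910-74542934): ctgtccagccAGACAtctactcacc
Arc, GGACT at 64 nt (chr15:74542955-74542979): ttgccaactaGGACTtgagctgggg

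The third region of Arc, at the 3' end of the transcript (1546 to 1670 nt), was at 26.9 in Sham list 1 and 51.4 in Re-24 h list 2.

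Npas4, a neuron-specific transcription factor of inhibitory synapse formation that is induced by calcium entry, was the member seen mainly in Sham. The coding region lost at all 3 times (chr19:5036891-5036990, -1234 to -1135 nt; gene ENSMUSG00000045903.11, minus strand) stood at 23.7 and 23.2 in Sham and so in the lower part of both lists. Sham list 2 held another peak directly beside it at 70.1 (-1134 to -885 nt), and Sham list 1 one after the stop codon at 16.5. Outside Sham, Npas4 had 2 coding peaks, at 17.3 in Re-6 h list 1 and 5.45 in Re-24 h list 1, at other positions. The 50 nt that both Sham peaks shared hold 1 GGACT, and the peak of Re-6 h holds another.
Npas4, -1234 to -1185 nt (chr19:5036941-5036990): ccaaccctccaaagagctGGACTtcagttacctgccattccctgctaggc
Npas4, GGACT at -325 nt (chr19:5036067-5036091): gccaggagctGGACTtcctggttga

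Nr4a1 encodes an orphan nuclear receptor that is induced in neurons and immune cells. It had 6 coding peaks (ENSMUSG00000023034.9, chr15:101151980-101172681, plus strand), 5 of them within one stretch from -1584 to -1110 nt. In that stretch each of 5 lists had 1 peak, at 61.0 and 54.4 in Sham, 63.0 and 60.3 at Re-6 h, and 59.6 in Re-24 h list 2. The values of the lists with a peak were close together, and the stretch had no peak in either Re-0 h list or in Re-24 h list 1. The peaks formed 3 regions that touched or lay 25 nt apart, so no single region was in more than 3 lists. The 25 nt shared in 3 lists (chr15:101168435-101168459) held no RRACH site, where 31.5% of all peaks of 25 nt hold one. The 125-nt peak of Re-6 h list 2 held a GGACT.
Nr4a1, GGACT at -1486 nt (chr15:101168273-101168297): tcaagtttgaGGACTtccaggtgta

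A list of 24 other early genes gave the setting. All 24 had a peak in at least 1 list and 11 in all 8, and their regions gained numbered 4 of 76 at Re-0 h, 7 of 81 at Re-6 h and 2 of 77 at Re-24 h, where 3.84%, 4.94% and 3.79% of all regions were gained. Lost regions numbered 1, 1 and 5 of the same totals, where 1.87%, 2.03% and 2.76% of all regions were lost. Atf3, a stress-induced partner of Jun proteins, had no peak in Sham and one in each of the 6 other lists. Its main 3' UTR region stood at 23.5 and 19.7 at Re-0 h, 85.9 and 77.8 at Re-6 h, and 40.2 and 42.1 at Re-24 h, and a second was gained at Re-6 h. Regions were also gained in Ier2 and Gadd45b at Re-0 h, in Zfp36 at Re-0 h and Re-6 h, in Maff, Nr4a3, Ccn1 and Trib1 at Re-6 h, and in Nab2, a co-repressor of Egr proteins, at Re-24 h. Egr2 and Nr4a2, relatives of Egr1 and Nr4a1, had a peak in both lists of every other group and in neither Re-24 h list. A region was lost there in each of them, and in Egr4, Plk2 and Per1, while Plk2 also lost it at Re-6 h and Nr4a3 lost one at Re-0 h.

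Sik1, a kinase that inactivates the CREB co-activators of the CRTC family, had the only early gene region past the limma threshold. This stop-codon region (chr17:32064999-32065448) stood at 7.25 and 5.47 in Sham, 68.8 and 70.7 at Re-0 h, 85.2 and 78.0 at Re-6 h, and 0.0891 and 3.69 at Re-24 h. It rose by 63.4 percentile points at Re-0 h and 75.3 at Re-6 h (limma, adjusted p = 0.0284 and 0.0118), and the F test gave an adjusted p of 0.0153. In 11 alternative fits the adjusted F test p of limma ranged from 0.0507 to 0.244, so the call over the 4 groups was lost in each of them, also with any 1 list left out. The adjusted p of limma ranged from 0.0879 to 0.527 at Re-0 h, where the call was lost in all 11, and from 0.0399 to 0.201 at Re-6 h, where it held only with regions in at least 6 lists. With 1 list left out, the differences stayed at 62.4 to 64.3 percentile points at Re-0 h and 71.7 to 78.9 at Re-6 h. Among the early genes without a gained, lost or called region, Ier5, Homer1 and Klf4 had the highest median best percentile, at 97.99, 94.8 and 87.3.

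**Figure D5:**
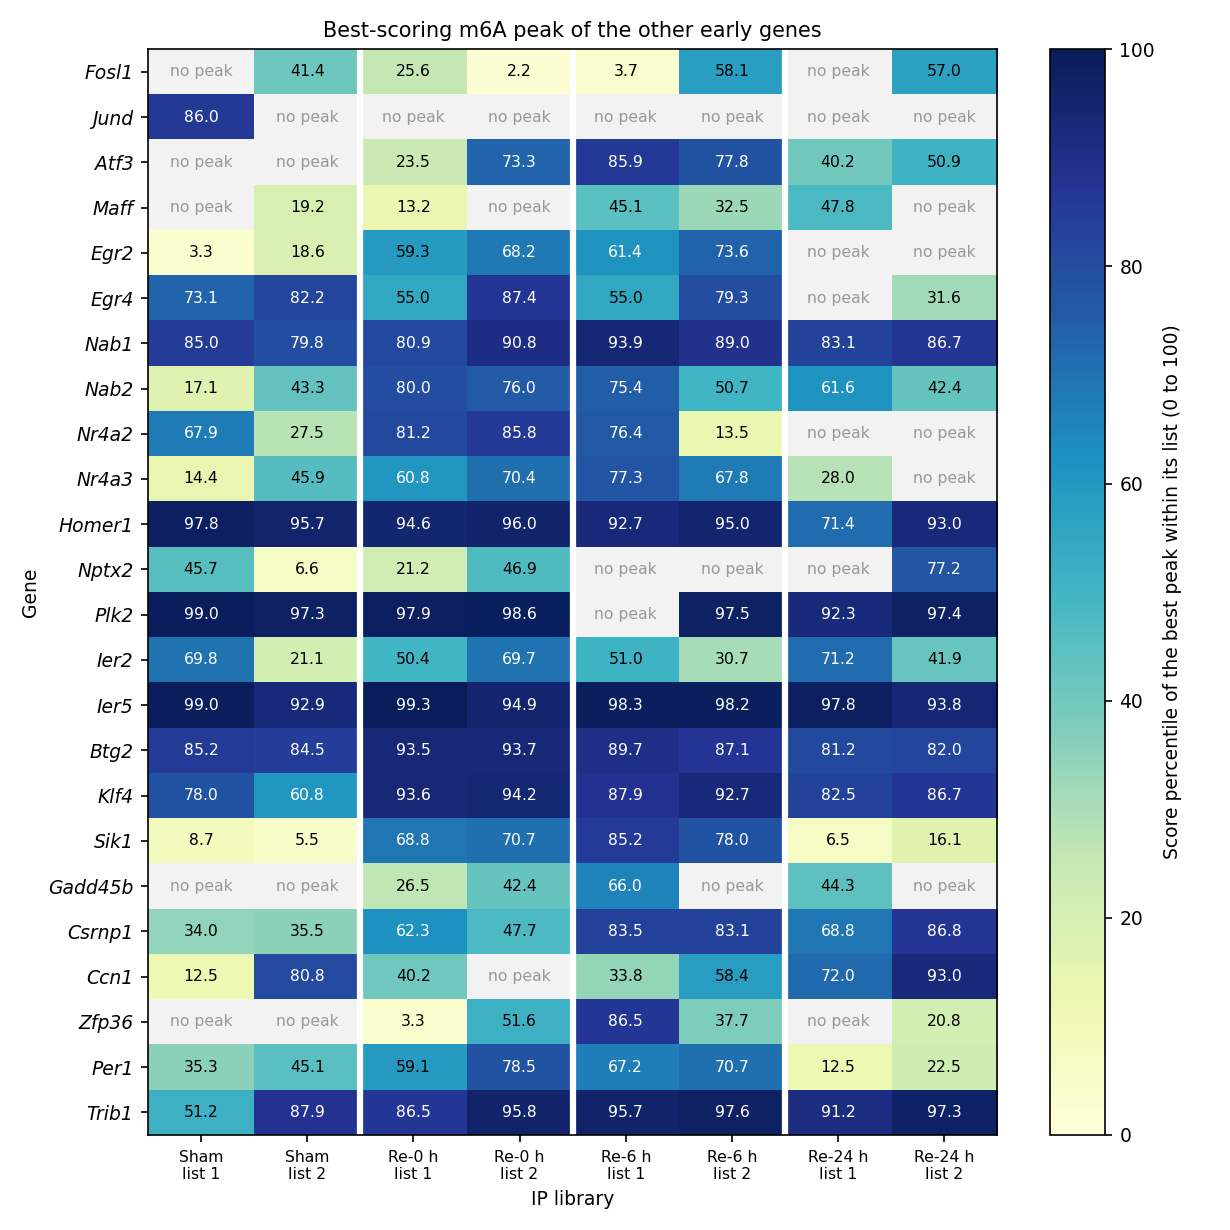
Score percentile within its list (colour and printed value, 0 to 100) of the best-scoring m6A peak of each of 24 other early genes (rows) in the 8 IP libraries (columns). Atf3, Gadd45b and Zfp36 have no peak in either Sham list, and Egr2 and Nr4a2 none in either Re-24 h list.

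Of 10 factors that act upstream of the immediate early genes, all had a peak in at least 4 lists and 3 in all 8. Regions gained and lost numbered 1 and 3 of 42 at Re-0 h, 1 and 4 of 40 at Re-6 h, and 1 and 5 of 40 at Re-24 h. The shares of all regions gained and lost were 3.84% and 1.87% at Re-0 h, 4.94% and 2.03% at Re-6 h, and 3.79% and 2.76% at Re-24 h. Srf, the serum response factor, lost a 5' UTR region (37.6 and 41.9 in Sham) at all 3 times, and Elk1, its cofactor, lost a 3' UTR region (13.6 and 24.5 in Sham) at all 3 and gained another at Re-6 h. Regions were lost in Creb1 at Re-6 h, in Crebbp at Re-6 h and Re-24 h, in Mef2c at Re-0 h and Re-24 h, and in Crtc1 at Re-24 h. Mef2c gained one at Re-0 h, directly beside its lost region, and Crebbp gained one at Re-24 h. Of the rest, Elk4, Atf1 and Mef2a had the highest medians, at 95.2, 86.9 and 72.5.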

How the data were processed

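MeRIP-seq peak lists of 8 IP libraries of mouse cortex, 2 for Sham and 2 for each reperfusion time, were analysed, grouped by the labels. According to the supplementary methods, the authors trimmed reads with Trim Galore, aligned them to GRCm39 with HISAT2, kept uniquely mapped reads (SAMtools) and ran exomePeak2 for peak calling before depositing 1 list per library with a score per peak. The scale of the score is not given in the sources used here, and it was used as a percentile within a list. The labels and the methods give different lengths for the RNA fragments. Input libraries were not analysed here.

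A peak belonged to a gene where it overlapped exons of its basic protein-coding transcripts on the same strand (GENCODE M39). Its exonic part was used throughout, and parts sharing at least 1 base were joined into regions. Regions in all 8 lists were fitted in limma 3.58.1 (R 4.3.3) on percentiles with 4 groups and no block, with Benjamini-Hochberg adjustment over all regions tested and a threshold of 0.05. Percentile, position and motif tables were made with Python 3.11.15, pandas 2.3.3, scipy 1.17.1 and pysam 0.24.0. The code was tested on simulated data. Same-numbered libraries deviated together only weakly (correlations of 0.0336 to 0.0982 over 6 pairs), so the numbers were not taken to pair them.

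All 10 members are named, with values in every list for regions in at least 4 lists. A gene of the 24 other early genes or 10 upstream factors is named where it has a gained, lost or limma-called region, and of the rest the 3 with the highest median best percentile. The members and these lists were chosen with earlier results of these data known. Alternatives changed the peaks used, the transcripts, the joining rule, the unit, the scale, the block, the features fitted, the point that places a peak, the motif and the libraries.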

Additional observations from a re-analysis of the deposited data

How the results depend on the processing

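With 2 lists per group and no read counts, the absence of a peak cannot be told from a peak below the caller's threshold, and the spread of a group rests on 1 difference. Gained and lost counts depended on the definition. Counted by gene they were 2 lost at Re-0 h, 0 lost at Re-6 h, 2 gained and 0 lost at Re-24 h. In the higher-scoring 50% of each list, which left 22 regions, 0, 0 and 0 were lost at the 3 times, 1 was gained at Re-6 h and 2 at Re-24 h. Requiring 50% of the shorter part to be shared gave 2 lost at Re-0 h, and joining gaps of up to 50 bases, chosen after seeing the data, gave 1 gained and 2 lost there. Leaving out a list relaxes the rule by construction. Gained regions then ranged from 0 to 6 at Re-0 h, from 0 to 2 at Re-6 h and from 6 to 12 at Re-24 h, and lost regions from 1 to 8, from 2 to 8 and from 2 to 6. The highest counts of gained regions came without Re-0 h list 2 (6) and Re-24 h list 1 (12), and 11 without Re-24 h list 2. Without Sham list 1 there were 6 lost regions at each time, and without Sham list 2 there were 8, 8 and 6.

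The F test of limma called 1 region, and 0 with log2 scores, with the replicate block, with regions in at least 6 lists, with the same number of peaks per list or without any 1 list, and it called 2 genes in place of regions. No member region was called with or without the replicate block, but only the Fosl2 stop-codon region entered these fits. Of the members, Fosb, Fosl2 and Jun entered the fit of genes. The F test of limma called none of them (adjusted p of 0.592, 0.548 and 0.813). With 1 list left out, the difference of the Fosl2 stop-codon region from Sham ranged from 2.98 to 28.9 percentile points at Re-0 h and from 18.4 to 43.5 at Re-6 h. The Fosl2 stop-codon region at Re-24 h minus Sham ranged from -8.90 to 16.2 percentile points with 1 list left out, and was -8.90 without Sham list 2 and -0.626 without Re-24 h list 2. GGACT occurred 1.84 times per kb of the member regions and 1.37 times per kb of all regions. The cause of these changes was not tested. The number of regions in at least 4 lists stayed at 5 to 6 over 14 alternatives.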
